A study of Mus musculus with 6 samples.

Results

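The 53 genes described here encode the ligands, extracellular regulators, receptors, SMADs and 2 transcriptional targets of transforming growth factor (TGF)-β and bone morphogenetic protein (BMP) signaling. They were taken from the transcript tables of 6 mouse sciatic nerve samples by gene symbol. Every one of the 53 symbols matched exactly 1 of the 54309 genes in the tables. Of these genes, 47 passed the filter on low counts, which asks for 0.5 CPM (counts scaled to library size) in 3 or more samples and left 16310 genes in all. The list follows the pathway, and the ligands singled out for a wide range between pools were chosen by the TPM values of these same 6 samples. Levels and ranges are therefore descriptions without a test.

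Left sciatic nerve tissue was taken 24 h after a sham operation in which the nerve was exposed but not cut. The mice were C57BL6/J, aged between 6 and 8 weeks. Nerves of 2 mice of the same sex were pooled per sample, giving 3 female and 3 male pools with no animal in common. All 6 pools had received the sham operation, and nerves of unoperated and axotomized mice were not analysed here. The comparison of female with male pools asks which of these transcripts differ by sex in the sham-operated nerve.

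TGF-β, activin, growth differentiation factor (GDF) and BMP ligands are secreted dimers that bring type II receptors, which are active serine/threonine kinases, together with type I receptors. The type I receptor then phosphorylates SMAD proteins. TGF-βs and activins act mainly through SMAD2 and SMAD3, and BMPs and several GDFs through SMAD1, SMAD5 and SMAD9, each in complex with SMAD4. TGF-β is secreted in a latent complex held in the matrix, activins and BMPs are bound by soluble antagonists, and SMAD6 and SMAD7 restrain the receptors. In peripheral nerve the pathway is known for its part in Schwann cell differentiation and survival, in fibroblast matrix production and in the response to injury.

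The female pools held 55949876 to 66285694 estimated read pairs and the male pools 59165914 to 78473057, and the composition factors (trimmed mean of M values, TMM) ran from 0.979 to 1.01. All 12 markers of myelinating Schwann cells passed the filter, and their summed level was 35560 to 43010 TPM in female pools and 40970 to 45060 TPM in male pools. Female pool 2 stood apart in the 15 fast skeletal muscle markers. Their summed level was 4252 TPM in that pool, against 28.9 and 87.8 TPM in the other female pools and 81.4 to 269 TPM in male pools. The 6 erythroid markers summed to 30730 TPM in female pool 3. Their sum was 12850 and 8047 TPM in the other female pools and 4958 to 14090 TPM in male pools. The comparison by sex was also run without female pool 2 and without female pool 3. Per-pool values are listed for pools 1, 2 and 3 of each sex. Because the tissue is bulk nerve, a smaller number of cells of a type and less RNA per cell cannot be told apart.

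Levels are in TPM, which is scaled by transcript length and can be set side by side between genes, and a mean is followed by the SD over the pools of that sex (n = 3). The median of the 47 members that passed the filter stood at percentile 53.2 of the 16310 genes by mean TPM. The 50th percentile of all genes was at 15.1 TPM. Of these 47 members, 27 were more abundant than the middle gene. Among the same 47 there were 11 above the 75th percentile of genes (39.6 TPM) and 11 under the 25th (3.83 TPM). Only Fstl1 and Tgfbr2 exceeded the 90th percentile, 93.2 TPM. Summed over the 53 members, the level was between 1339 and 1535 TPM in every pool. The other 6 members, Gdf1, Gdf5, Gdf6, Mstn, Nog and Grem1, did not pass the filter. Each had a mean of 0.566 TPM or less and was given no percentile.

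Between the sexes, 1 of the 47 members tested was called by edgeR's quasi-likelihood test at a Benjamini-Hochberg adjusted p under 0.1, beside 0.0613% of all genes tested. That member was Gdf3, which was higher in females, as were 0.0245% of all genes tested. DESeq2 and limma each called Gdf3 alone of the 47, where they called 0.975% and 0.159% of all genes. The next lowest edgeR adjusted p among the members was 0.75. At an unadjusted p under 0.05 edgeR had 3 members, Gdf3, Gdf10 and Id3, which is 6.38% of those tested and close to the 6.11% of all genes. The TPM ranges of the sexes did not overlap for 4 members, Gdf3, Tgfb1, Gdf10 and Id3. That is 8.51% of the members, against 11.0% of all genes. The median log2 fold change, female over male, was 0.017 over the members and 0.0016 over all genes. Of the 47 fold changes, 27 were above 0 and 20 below, and only Gdf3 and Inhba exceeded 0.5 in size.

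**Figure D1:**
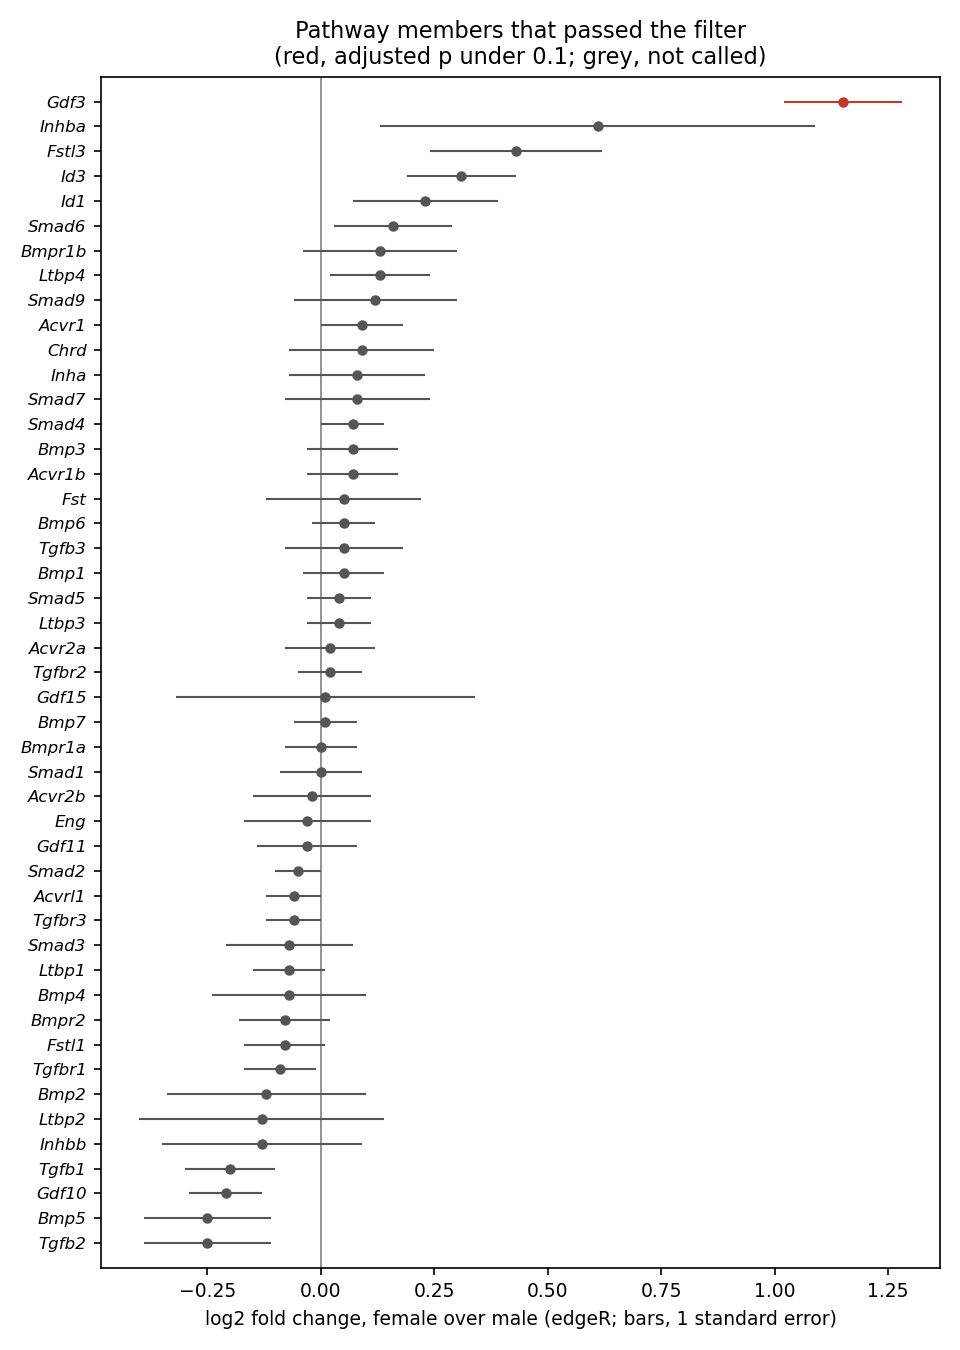
Log2 fold change, female over male, of the 47 pathway genes that passed the filter, from edgeR, with bars of 1 standard error. Gdf3 (red), at 1.15, was the only gene called, and the others (grey) lay between -0.25 and 0.61.

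Gdf3 encodes a GDF ligand that in mice has been studied in early embryos, stem cells and adipose tissue. It lies on the minus strand at chr6:122582317-122587197 of GRCm39. Its level was 9.28, 7.68 and 8.18 TPM in female pools, against 3.66, 3.89 and 4.10 TPM in male pools. Every female pool was above every male pool. The mean was 8.38 ± 0.818 TPM in female pools and 3.88 ± 0.217 TPM in male pools. Gdf3 was higher in females by a log2 fold change of 1.15 ± 0.13 (SE), with an edgeR adjusted p of 0.053. The call rested on 2530 estimated read pairs over the 6 pools, and on the same 6 values that gave Gdf3 its wide range, so it is not independent of that choice. DESeq2 gave an adjusted p of 2.1e-11 and limma 0.012. With 1 pool left out at a time, the log2 fold change stayed between 1.07 and 1.26. The edgeR call was lost without female pool 1 (adjusted p = 0.25), female pool 3 (0.15), male pool 1 (0.24) or male pool 2 (0.22). It was kept without female pool 2 (0.091) or male pool 3 (0.078).

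Of the Gdf3 signal, 96.4% came from its full protein-coding transcript. Exons of Dppa3 lie on the opposite strand at the locus, and the libraries keep strand. The summed level of 10 adipocyte markers was 1054, 1338 and 1963 TPM in female pools, against 1075, 1030 and 1001 TPM in male pools. The sexes overlapped in that sum, and the female pool with the highest Gdf3 had the lowest adipocyte sum of its sex. None of the 10 adipocyte markers was called, and their part in the Gdf3 result was not tested.

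Among the 20 ligands, 16 passed the filter. Tgfb1 was the most abundant, followed by Bmp7 and Tgfb3, and Gdf15 was the least abundant of the 16. Ordered by mean TPM, neighbouring ligands overlapped in their pool values except at 4 steps, between Tgfb1 and Bmp7, Tgfb3 and Gdf10, Bmp6 and Gdf3, and Bmp2 and Gdf15. From Gdf3, with a mean of 6.13 TPM, down to Bmp2, at 1.83 TPM, no neighbours in the order were separated.

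**Figure D2:**
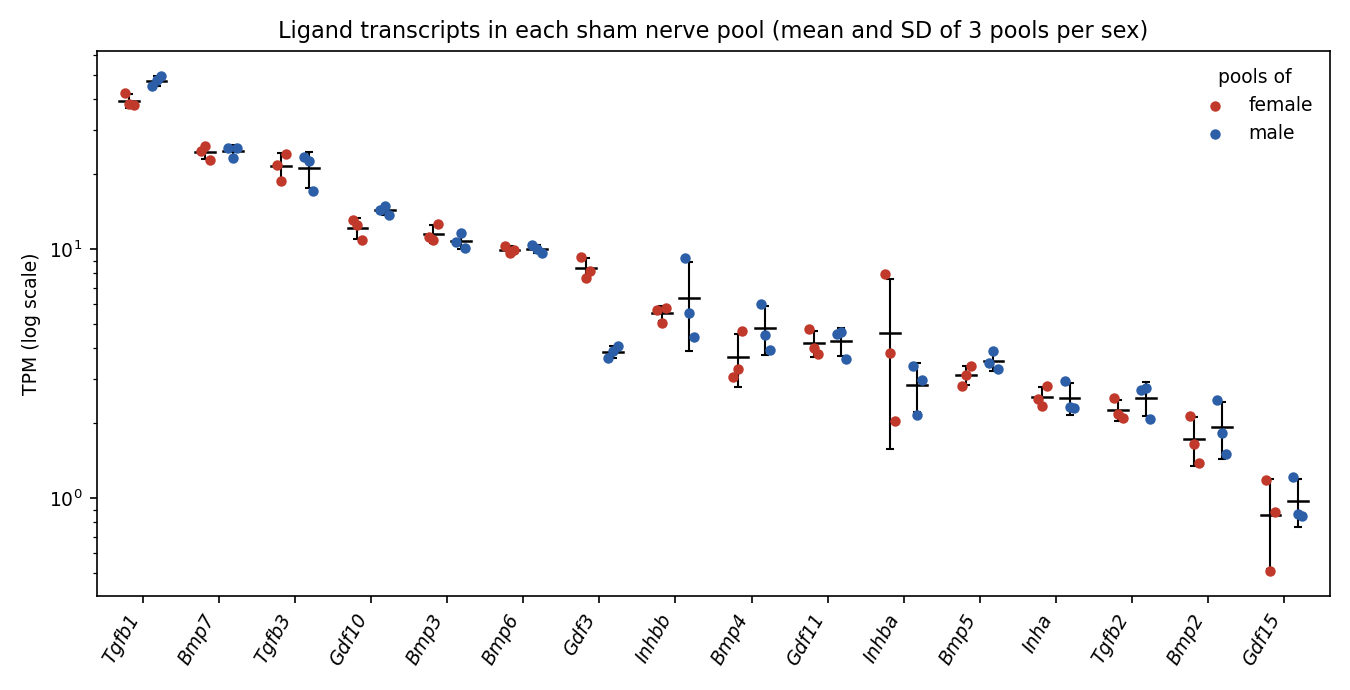
TPM (log scale) of the 16 ligands that passed the filter by pool, female (red) left of male (blue), with each sex's mean and SD (n = 3), ordered by mean. Tgfb1 lay highest, at 37.9 to 49.7 TPM, and Gdf3 showed the widest gap between the sexes.

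Tgfb1, the TGF-β isoform best known from immune cells and fibrosis, is at chr7:25386390-25404506 on the plus strand. It was at 42.3, 38.1 and 37.9 TPM in female pools, against 45.2, 47.8 and 49.7 TPM in male pools. The sexes did not overlap, with means of 39.5 ± 2.50 TPM in female pools and 47.6 ± 2.27 TPM in male pools. The log2 fold change was -0.20 ± 0.10 (SE) and was not called, with an edgeR adjusted p of 0.83. The summed level of 10 macrophage markers did not overlap either, at 3636, 3533 and 3748 TPM in female pools and 4063, 5383 and 4667 TPM in male pools. Within the sexes, female pool 3 was highest in the sum and lowest in Tgfb1. Male pool 1 was lowest of its sex in both, while male pool 2 was highest in the sum and male pool 3 in Tgfb1. No macrophage marker was called, and their part in the Tgfb1 values was not tested.

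Tgfb3 encodes another isoform, and its level overlapped between the sexes. It stood at 21.9, 18.7 and 24.1 TPM in female pools, against 23.5, 22.6 and 17.2 TPM in male pools. Tgfb2, the third isoform, was the scarcest of the TGF-β ligands in every pool. It was at 2.52, 2.18 and 2.10 TPM in female pools, against 2.73, 2.78 and 2.08 TPM in male pools. Its log2 fold change was -0.25 ± 0.14 (SE), with an edgeR adjusted p of 0.84. Summed over the 3 isoforms, the level was 63.3 ± 3.89 TPM in female pools and 71.2 ± 2.09 TPM in male pools, and Tgfb1 made up 64.7% of it.

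Activins are dimers of the β subunits encoded by Inhba and Inhbb, and inhibin pairs a β subunit with the α subunit encoded by Inha. Inhbb was at 5.70, 5.07 and 5.81 TPM in female pools, against 9.21, 5.53 and 4.43 TPM in male pools. Male pool 1 was high, and the other 5 pools lay close together. Inhba, at chr13:16186373-16206206 on the plus strand, was at 7.93, 3.82 and 2.04 TPM in female pools, against 3.41, 2.16 and 2.98 TPM in male pools. Female pool 1 was the high one, and female pool 3 was the lowest of all 6. The Inhba log2 fold change was 0.61 ± 0.48 (SE), with an edgeR adjusted p of 0.88. Inha was at 2.56 ± 0.236 TPM in female pools and 2.53 ± 0.378 TPM in male pools.

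Of the 8 GDF ligands, myostatin included, Gdf10, Gdf3, Gdf11 and Gdf15 passed the filter. Gdf10, a BMP3-related ligand at chr14:33645273-33659940 on the plus strand, was the most abundant and made up 53.6% of the summed level. It was at 13.1, 12.5 and 10.9 TPM in female pools, against 14.4, 14.9 and 13.7 TPM in male pools. The sexes did not overlap, and the log2 fold change was -0.21 ± 0.08 (SE). Its edgeR p of 0.022 was the second lowest of the members, and its adjusted p of 0.75 was far above the threshold. Gdf11, a ligand close to myostatin in sequence, was at 4.20 ± 0.508 TPM in female pools and 4.28 ± 0.569 TPM in male pools. Gdf15, a stress-induced ligand whose known receptor is outside the TGF-β receptor family, had 240 estimated read pairs in all. Its level was 1.18, 0.508 and 0.881 TPM in female pools, against 1.22, 0.861 and 0.846 TPM in male pools.

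The remaining GDF ligands were near or at the limit of detection. Gdf1, an embryonic patterning ligand, had 0 estimated reads in every pool. Counting error alone allows up to 3 reads, or 0.0549 to 0.0762 TPM by pool. Gdf1 shares exons with Cers1 on the same strand, so reads from the locus can be assigned to either gene. Gdf5 and Gdf6, ligands of joint and skeletal development, had 9 and 28 reads over the 6 pools. Mstn encodes myostatin, the muscle growth inhibitor, and had 50 reads. It was at 0, 0.708 and 0.0144 TPM in female pools, against 0.0376, 0 and 0.0171 TPM in male pools. Nearly all of it was in female pool 2, the pool with 4252 TPM of fast muscle markers.

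All 6 BMP ligands passed the filter. Bmp7, which is also known for roles in kidney and brown fat, made up 44.6% of their summed level. It was at 24.9, 25.9 and 22.9 TPM in female pools, against 25.6, 23.2 and 25.5 TPM in male pools. Bmp3, an atypical BMP that can oppose osteogenic BMPs, was at 11.2, 10.8 and 12.6 TPM in female pools, against 10.7, 11.6 and 10.1 TPM in male pools. Bmp6, a regulator of hepcidin in liver, was the steadiest ligand and ranged from 9.63 to 10.4 TPM over the 6 pools. The summed level of the BMP ligands was 54.6 ± 0.299 TPM in female pools and 55.9 ± 2.39 TPM in male pools.

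Bmp4, Bmp5 and Bmp2 were lower. Bmp4, which acts widely in embryonic patterning, was at 3.06, 3.30 and 4.68 TPM in female pools, against 6.01, 4.51 and 3.95 TPM in male pools. Bmp5, at chr9:75682638-75807592 on the plus strand, was at 2.83, 3.14 and 3.40 TPM in female pools, against 3.49, 3.91 and 3.30 TPM in male pools. Bmp2, a strong inducer of bone formation, was at 2.14, 1.66 and 1.39 TPM in female pools, against 2.48, 1.82 and 1.51 TPM in male pools. The sexes overlapped in each of these 3 ligands. Bmp5 had a log2 fold change of -0.25 ± 0.14 (SE), with an edgeR adjusted p of 0.84.

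A wide range between pools was taken as a highest pool at least 1.5 times the lowest, with at least 10 reads in every pool. It held for 6 of the 16 ligands (37.5%), for 10 of the 31 other members tested (32.3%) and for 26.6% of all genes. The median ratio was 1.38 in ligands, 1.28 in other members and 1.29 in all genes. Inhba had the widest range at 3.88, followed by Gdf3 at 2.53, Gdf15 at 2.40, Inhbb at 2.08, Bmp4 at 1.96 and Bmp2 at 1.78. The first ligand outside was Tgfb3, at 1.40. The Bmp4 range included a retained-intron transcript of 258 bases with 19 reads in all. It was at 0 TPM in female pool 1, the lowest Bmp4 pool, and 2.05 TPM in male pool 1, the highest. Gdf15 had 20 to 59 reads by pool. Counting error was not separated from either range. Gdf3 was the one wide ligand whose range followed sex.

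**Figure D3:**
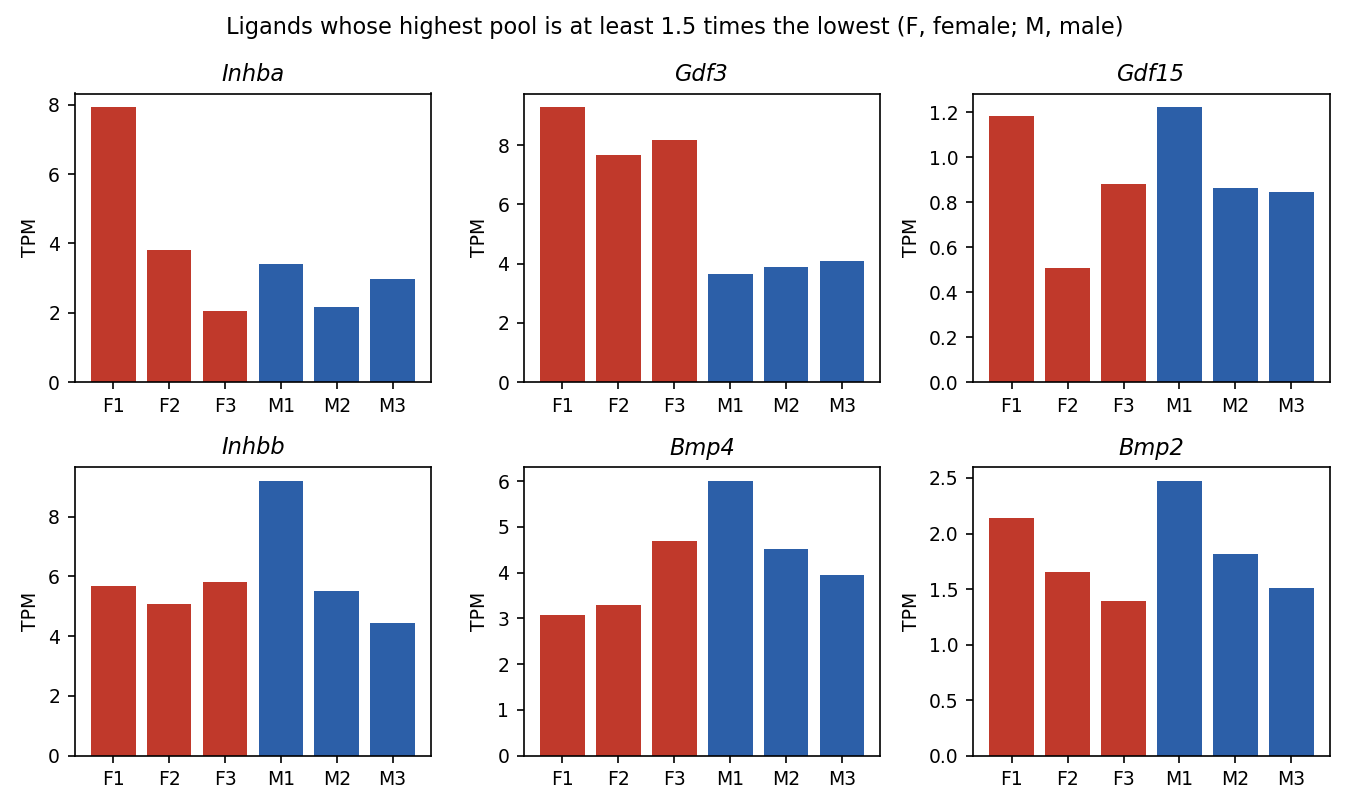
TPM in each pool (bars, from 0) of the 6 ligands whose highest pool was at least 1.5 times the lowest, female pools (F, red) to the left of male pools (M, blue). A single pool stood highest in Inhba (female pool 1) and Inhbb (male pool 1), while Gdf3 split by sex.

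In several of these ligands 1 pool gave much of the range. Without female pool 1 the Inhba ratio was 1.87, which was still wide. Without male pool 1 the Inhbb ratio was 1.31, and without female pool 2 the Gdf15 ratio was 1.44. The summed level of 8 immediate early genes, induced by tissue handling among other stimuli, was 437, 316 and 319 TPM in female pools, against 319.8, 266 and 452 TPM in male pools. Female pool 1, high in Inhba, was also high in that sum, and male pool 3 was high in the sum but not in Inhba. The 10 endothelial markers summed to 349.7, 397 and 404 TPM in female pools, against 451, 399 and 343 TPM in male pools. Male pool 1 was highest in this sum and in Inhbb. It was also highest in total Bmp4, but the main Bmp4 transcript was highest in female pool 3 (3.57 TPM, against 3.13 TPM in male pool 1). The part of either marker list in these ranges was not tested.

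The soluble antagonists and binding proteins were dominated by Fstl1, which made up 89.6% of their summed level. Fstl1, a secreted follistatin-related glycoprotein made by mesenchymal cells, was at 397, 351 and 352 TPM in female pools, against 399.6, 405 and 334 TPM in male pools. It stood at percentile 97.8, and the sexes overlapped. Fst encodes follistatin, which binds and neutralises activins. It was at 19.7, 15.02 and 21.9 TPM in female pools, against 23.4, 21.1 and 16.9 TPM in male pools, again overlapping. Fstl3, a follistatin relative that binds activins and myostatin, is at chr10:79613096-79618464 on the plus strand. It was at 27.2, 19.8 and 18.5 TPM in female pools, against 15.8, 15.8 and 19.4 TPM in male pools. The means were 21.8 ± 4.70 TPM in female pools and 16.98 ± 2.06 TPM in male pools. The log2 fold change was 0.43 ± 0.19 (SE), with an edgeR adjusted p of 0.81. The highest Fstl3 values of each sex were in female pool 1 and male pool 3, the 2 pools highest in the immediate early gene sum, whose part was not tested.

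The BMP antagonist genes Chrd, Nog and Grem1 were scarce. Chrd, which encodes chordin, was at 3.98 ± 0.601 TPM in female pools and 3.55 ± 0.776 TPM in male pools. Nog, encoding noggin, and Grem1, encoding gremlin, did not pass the filter, with 156 and 18 reads over the 6 pools.

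Follistatin is made in 2 main forms by alternative splicing, and the longer one carries an acidic tail encoded by an extra last coding exon. The tail exon is shown because its share was the least steady of the alternative transcript parts examined. The coding part of the exon, on the minus strand at chr13:114589962-114590041 of GRCm39 (80 bases), is in capitals between 12 flanking bases on either side. The lower-case bases after it begin with the stop codon.
Fst last coding exon: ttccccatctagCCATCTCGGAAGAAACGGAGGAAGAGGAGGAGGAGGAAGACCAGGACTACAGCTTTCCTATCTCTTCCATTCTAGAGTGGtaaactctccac
Transcripts with this exon made up 34.6, 47.7 and 34.0% of the Fst TPM compared in female pools, against 33.9, 30.5 and 25.4% in male pools. The means were 38.8 ± 7.70% in female pools and 29.9 ± 4.26% in male pools. The sexes did not overlap, but female pool 3, at 34.0%, lay just above male pool 1, at 33.9%. No test was made, since an exact permutation test of 3 against 3 pools cannot give a two-sided p under 0.1. The transcripts with the exon had 927 and 607 reads in all, and the one without it 5061. The transcripts compared made up 66.8 to 95.9% of Fst TPM by pool. A retained-intron transcript that was not compared was at 0 TPM in female pool 2, the pool with 47.7%. It made up 10.6 to 31.5% of Fst TPM in the other pools, and its part in the shares was not tested.

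The latency and processing genes were all expressed, with sums of 223 ± 8.42 TPM in female pools and 227 ± 24.1 TPM in male pools. Bmp1 encodes a metalloproteinase that cleaves chordin and procollagens. It was at 77.3, 69.2 and 72.1 TPM in female pools, against 83.1, 70.8 and 62.9 TPM in male pools. Ltbp4, a latent TGF-β binding protein that also organises elastic fibres, was at 50.8, 56.1 and 65.7 TPM in female pools, against 63.7, 57.9 and 51.7 TPM in male pools. The values of the sexes overlapped in both. Ltbp3, which like Ltbp1 tethers latent TGF-β to the matrix, averaged 49.6 ± 4.28 TPM in female pools and 51.5 ± 2.74 TPM in male pools. Ltbp1 averaged 27.4 ± 3.44 TPM in female pools and 28.2 ± 2.50 TPM in male pools. Ltbp2, which does not bind latent TGF-β, varied most in this group. It was at 18.1, 17.1 and 11.2 TPM in female pools, against 23.4, 15.6 and 12.4 TPM in male pools.

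Ltbp1 had several transcripts, 2 of which differ by a 159-base coding stretch at chr17:75583391-75583549 on the plus strand. It is shown in capitals because transcripts with and without it were both abundant in every pool. The lower-case bases after it are coding sequence that both transcripts share.
Ltbp1 alternative stretch: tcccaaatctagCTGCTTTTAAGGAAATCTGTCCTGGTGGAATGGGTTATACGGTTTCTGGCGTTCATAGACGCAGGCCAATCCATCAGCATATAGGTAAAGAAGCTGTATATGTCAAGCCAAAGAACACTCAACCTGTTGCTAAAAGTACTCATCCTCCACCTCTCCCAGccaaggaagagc
The transcript with the stretch made up 56.8, 55.0 and 52.5% of the pair in female pools, against 55.4, 63.6 and 57.0% in male pools. The form of Ltbp1 with a longer amino-terminal part made up 18.5 ± 2.02% in female pools and 20.6 ± 1.08% in male pools of the transcripts compared. In both comparisons the sexes overlapped.

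Type I receptors summed to 134 ± 7.45 TPM in female pools and 133 ± 7.52 TPM in male pools. Bmpr1a, a BMP receptor, was at 43.2, 41.5 and 40.8 TPM in female pools, against 42.0, 41.7 and 36.7 TPM in male pools. Acvrl1, known from endothelial cells, was at 29.6, 32.9 and 28.5 TPM in female pools, against 35.0, 32.6 and 31.6 TPM in male pools. The sexes overlapped in both. Tgfbr1, which encodes the TGF-β type I receptor, averaged 22.6 ± 0.689 TPM in female pools and 22.6 ± 1.56 TPM in male pools. Acvr1b, an activin type I receptor gene, and Acvr1, whose product also serves BMPs, lay just below, with means of 19.0 and 17.6 TPM in female pools and 18.4 and 16.4 TPM in male pools. Bmpr1b, the second BMP type I receptor gene, was the scarcest, with 2.30 ± 0.545 TPM in female pools and 1.94 ± 0.370 TPM in male pools. The pool values placed Bmpr1a above Acvrl1, Acvrl1 above Tgfbr1, and Acvr1 above Bmpr1b without overlap.

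Among type II receptors, Tgfbr2, the TGF-β binding receptor, made up 70.7% of the sum. It was at 119, 104 and 102 TPM in female pools, against 114, 107 and 96.7 TPM in male pools, and stood at percentile 91.7. The log2 fold change was 0.02 ± 0.07 (SE), with an edgeR adjusted p of 0.97. Bmpr2, the BMP type II receptor gene, was at 22.9, 23.9 and 24.0 TPM in female pools, against 24.9, 25.3 and 21.2 TPM in male pools. Acvr2a, an activin type II receptor gene, averaged 17.5 ± 1.19 TPM in female pools and 16.5 ± 0.926 TPM in male pools. Its relative Acvr2b averaged 3.69 ± 0.341 TPM in female pools and 3.92 ± 0.302 TPM in male pools. All neighbours in this order were separated, and in no type II receptor gene were the sexes.

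The 2 transcripts of Tgfbr2 differ by an exon that encodes an insert in the extracellular part of the receptor. The exon, on the minus strand at chr9:115987339-115987413 (75 bases), is given in capitals because both forms were abundant in every pool.
Tgfbr2 alternative exon: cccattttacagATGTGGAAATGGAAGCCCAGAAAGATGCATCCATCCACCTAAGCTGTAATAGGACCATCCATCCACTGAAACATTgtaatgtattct
The transcript with the exon made up 38.7, 40.9 and 44.4% of Tgfbr2 in female pools, against 41.2, 42.4 and 46.1% in male pools. The mean share was 41.3 ± 2.89% in female pools and 43.3 ± 2.53% in male pools, with overlap. In the tables this transcript is 8092 bases long and the one without the exon 3476, so the exon and the longer 3′ end cannot be told apart in these shares.

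**Figure D4:**
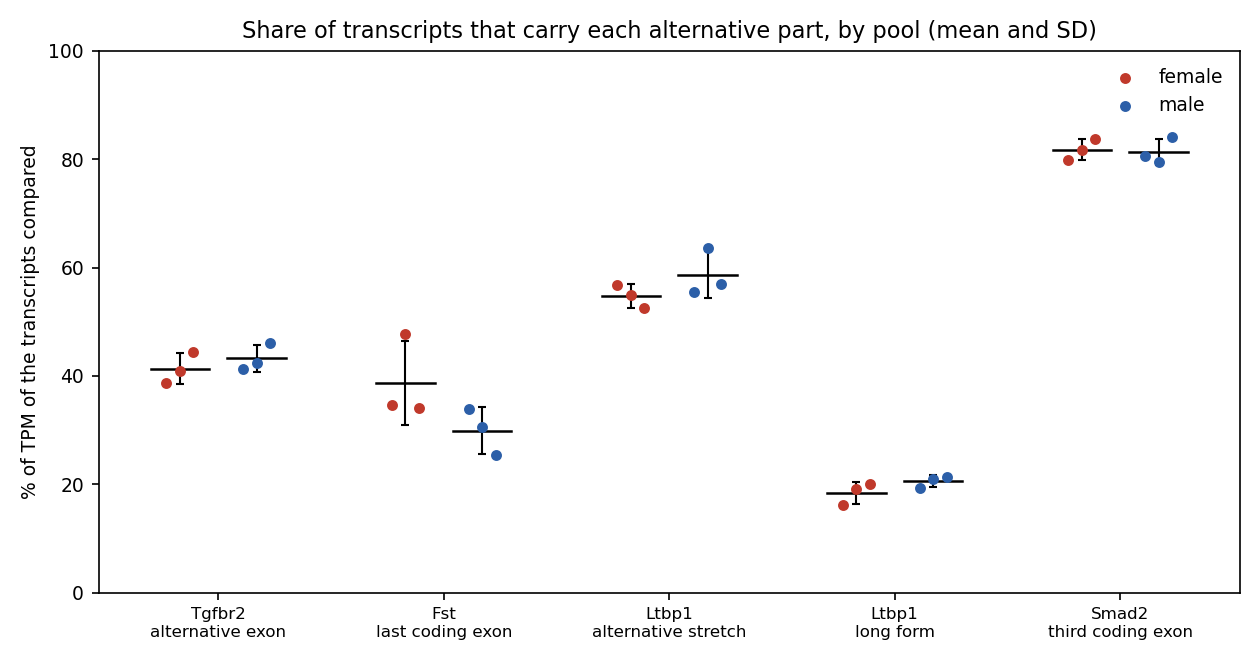
Share (%) of the compared transcripts' TPM that carries each alternative part, by pool, female (red) left of male (blue), with each sex's mean and SD (n = 3). The Tgfbr2, Ltbp1 and Smad2 shares overlapped between the sexes, and the Fst share ran from 25.4 to 47.7%.

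The co-receptor Tgfbr3, or betaglycan, which presents TGF-β to Tgfbr2, was at 77.8, 77.2 and 77.5 TPM in female pools, against 82.8, 80.4 and 77.6 TPM in male pools. Its highest pool was only 1.07 times its lowest. Eng, the endothelial co-receptor endoglin, was at 38.4, 43.0 and 43.2 TPM in female pools, against 54.6, 44.2 and 32.0 TPM in male pools. Within each sex the pools of Eng were in the same order as in the endothelial marker sum, whose part was not tested.

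**Figure D5:**
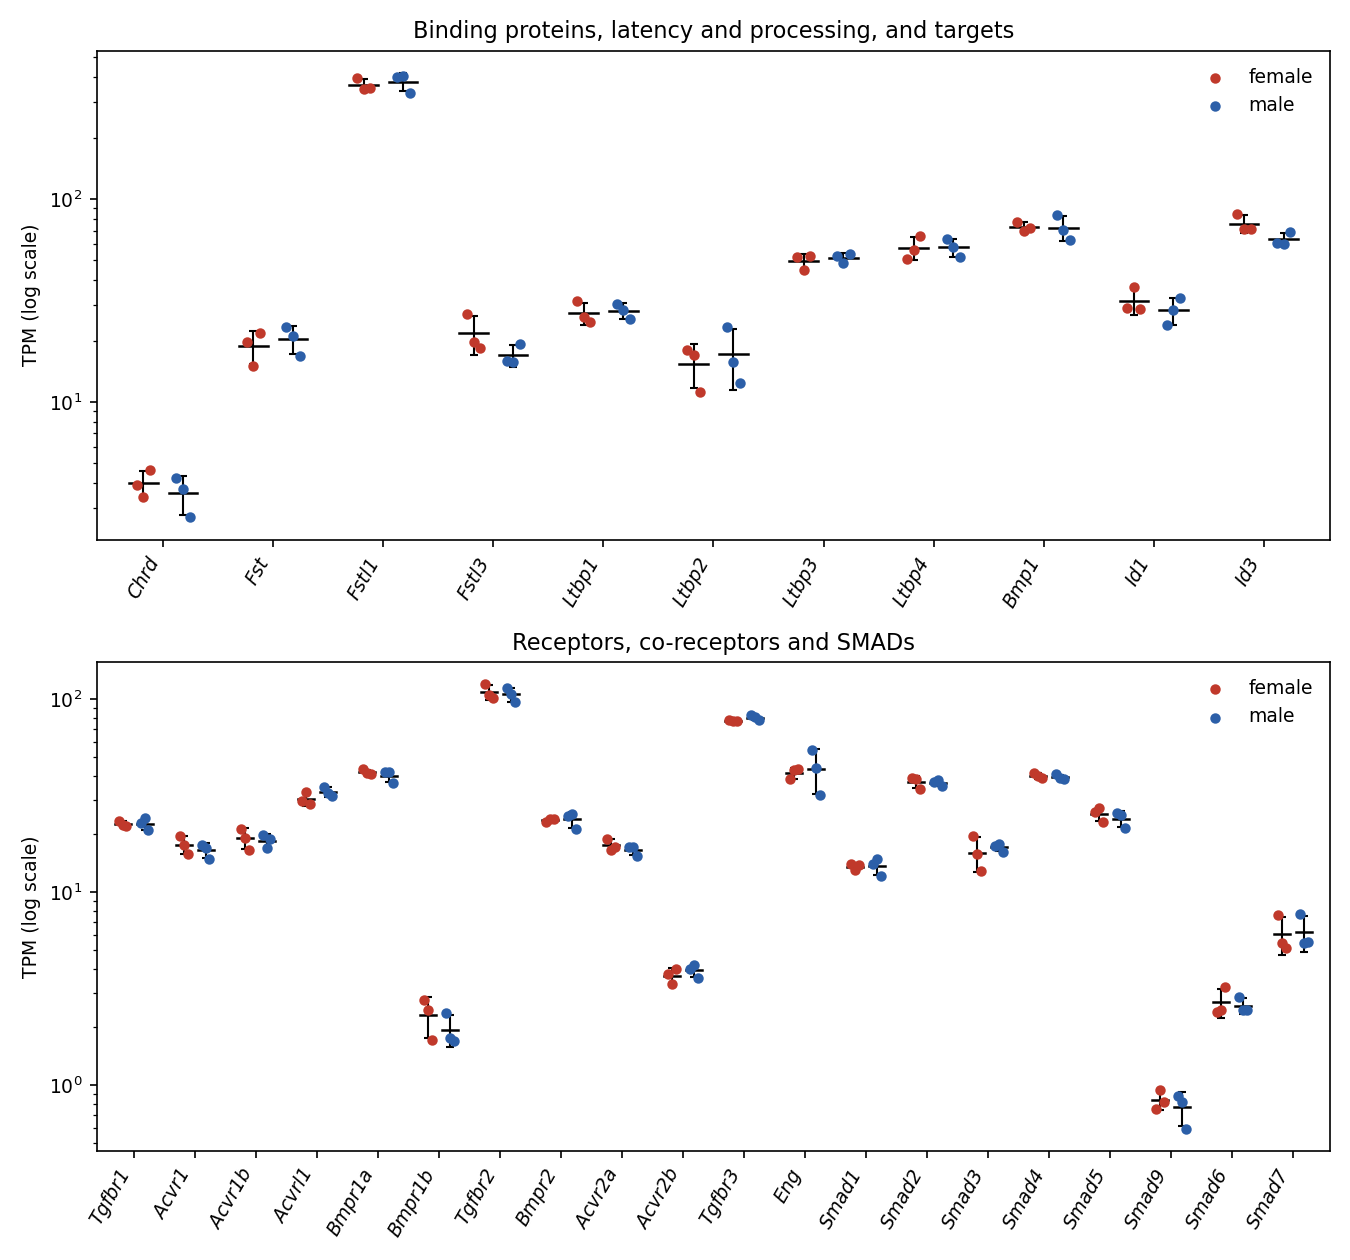
TPM (log scale) by pool, female (red) left of male (blue), with each sex's mean and SD (n = 3), of the binding, latency and target genes (upper panel) and of the receptors, co-receptors and SMADs (lower panel) that passed the filter. Fstl1, at 334 to 405 TPM, and Tgfbr2, at 96.7 to 119 TPM, lay highest in their panels, and only Id3 separated the sexes.

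Of the receptor-regulated and common SMAD genes, Smad4, the shared partner, and Smad2 were the most abundant. Smad4 was at 41.4, 39.9 and 38.8 TPM in female pools, against 40.7, 39.0 and 38.8 TPM in male pools. Smad2 was at 39.1, 38.6 and 34.2 TPM in female pools, against 37.2, 37.9 and 35.3 TPM in male pools. Neither separated the sexes. On the BMP side, Smad5 averaged 25.4 ± 2.07 TPM in female pools and 24.1 ± 2.34 TPM in male pools, while Smad1 averaged 13.6 TPM in each sex. Smad9 was the scarcest SMAD gene, with 0.835 ± 0.0969 TPM in female pools and 0.764 ± 0.152 TPM in male pools. Smad3 ranged from 12.8 TPM in female pool 3 to 19.5 TPM in female pool 1, and its male pools lay inside that range.

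The third coding exon of Smad2, whose product keeps the full-length protein from binding DNA directly, was in 79.8, 81.7 and 83.7% of the transcripts compared in female pools, against 80.5, 79.5 and 84.1% in male pools. This was the highest share of the 5 alternative parts compared and overlapped between the sexes. The transcripts with the exon are 2410 and 8089 bases long and the one without it 1645. The exon and the other differences in length therefore cannot be told apart in these shares. The transcripts compared made up 85.8 to 93.6% of Smad2 TPM by pool.

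The inhibitory SMAD genes Smad7 and Smad6 were lower in TPM than every other SMAD gene except Smad9. Smad7, which acts on TGF-β and BMP receptors, was at 7.59, 5.45 and 5.12 TPM in female pools, against 7.73, 5.44 and 5.49 TPM in male pools. Pool 1 of each sex was the high one. Smad6, which acts mainly on BMP receptors, was at 2.40, 2.43 and 3.21 TPM in female pools, against 2.85, 2.44 and 2.44 TPM in male pools. Together they summed to 8.73 ± 1.11 TPM in female pools and 8.80 ± 1.55 TPM in male pools, beside 133 ± 8.76 TPM in female pools and 132 ± 6.48 TPM in male pools for the other 6 SMAD genes.

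Id1 and Id3, which encode inhibitors of helix-loop-helix transcription factors, are targets that BMP signaling induces through SMADs in many cells. Id3, at chr4:135870808-135873066 on the plus strand, was at 84.3, 71.2 and 71.2 TPM in female pools, against 61.1, 60.1 and 69.0 TPM in male pools. The sexes did not overlap, with means of 75.6 ± 7.58 TPM in female pools and 63.4 ± 4.85 TPM in male pools. The log2 fold change was 0.31 ± 0.12 (SE), with an edgeR p of 0.033. After adjustment over all genes the edgeR p was 0.80, so Id3 was not called. Id1 was at 29.04, 36.8 and 28.6 TPM in female pools, against 23.9, 28.6 and 32.4 TPM in male pools. The sexes overlapped, and the log2 fold change was 0.23 ± 0.16 (SE), with an edgeR adjusted p of 0.86. The Id3 values of female pool 1 and male pool 3 were the highest of their sex, and these pools were also highest in the immediate early gene sum. The 10 pericyte and smooth muscle markers summed to 625, 536 and 571 TPM in female pools, against 561, 488 and 429 TPM in male pools. The part of these marker lists was not tested.

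The 250 bases before the RefSeq start of Id3 are shown as the one target promoter examined, from chr4:136143572-136143821 of GRCm38.p6, plus strand. Capitals mark the 5-base SMAD box, CAGAC or GTCTG on either strand.
Id3 promoter: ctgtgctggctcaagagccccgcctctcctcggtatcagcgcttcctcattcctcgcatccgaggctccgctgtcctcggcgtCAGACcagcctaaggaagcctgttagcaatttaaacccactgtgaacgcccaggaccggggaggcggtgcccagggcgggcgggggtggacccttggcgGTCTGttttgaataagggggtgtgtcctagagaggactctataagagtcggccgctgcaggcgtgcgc
The window held 2 matches. At least 1 match was found in 42.2% and at least 2 in 11.5% of 32851 RefSeq promoters of the same length, so the letters alone are common. Of the 53 members, 37 had an entry in that promoter table.

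The transcript make-up of the members varied. Among the 49 members with TPM above 0 in every pool, 1 transcript gave over 90% of the level in 31. In 8 members more than 20% of the TPM came from transcripts that are not annotated as protein-coding. They were Bmp4, Chrd, Fst, Fstl3, Ltbp1, Ltbp3, Ltbp4 and Bmp1, with 48.9% in Ltbp3 the highest share. With protein-coding transcripts alone the means of Ltbp3, Bmp1, Ltbp4 and Fstl3 over the 6 pools were 25.9, 45.5, 41.6 and 11.9 TPM. Of the 8, Bmp4 was the one ligand. Its main protein-coding transcript was at 2.60, 2.79 and 3.57 TPM in female pools, against 3.13, 2.24 and 1.44 TPM in male pools. Another protein-coding transcript was listed at 0 in all 3 female pools, against 0.730, 0.953 and 1.63 TPM in male pools. This split of Bmp4 was picked out after its values were seen and was not tested. The tables give no uncertainty for the assignment of reads between transcripts of a gene.

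A further 90 genes of the pathway, in 6 lists of ligands, antagonists, activators, receptors, intracellular regulators and response genes, were read in the same fit. Of these, 66 passed the filter. edgeR called 0 of them, beside 0.0613% of all genes tested. At an unadjusted p under 0.05 edgeR had 1 higher in females and 3 lower, as were 2.49% and 3.62% of all genes. DESeq2 and limma each called 1, Col1a1, where they called 0.975% and 0.159% of all genes. With no filter on low counts edgeR also called Col1a1, among 49 of 31616 genes. The median log2 fold change of the 66 was -0.02. Only 3 of the 13 further ligands passed the filter, the most abundant being Lefty1, a ligand that blocks Nodal, with 7.35 ± 1.303 TPM in female pools and 9.39 ± 1.54 TPM in male pools. The oocyte ligand Gdf9 followed with 1.51 ± 0.624 TPM in female pools and 1.504 ± 0.210 TPM in male pools.

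Several further regulators were more abundant than most members. Nbl1 and Chrdl1, both BMP antagonists, averaged 331 and 143 TPM in female pools and 337 and 134 TPM in male pools. Thbs1, which encodes an activator of latent TGF-β, was at 367, 226 and 166 TPM in female pools, against 207, 133 and 273 TPM in male pools. Its highest pools of each sex were female pool 1 and male pool 3, as in the immediate early gene sum, whose part was not tested. For Thbs1, as for Fstl3 and Id3, this match is not set against the share of all genes that have it. Tgfb1 had the same highest pools. Pcolce, which enhances Bmp1 activity on procollagen, averaged 269.6 ± 18.5 TPM in female pools and 278 ± 28.8 TPM in male pools. Among intracellular regulators, Fkbp1a, whose product binds inactive type I receptors, and the SMAD adaptor Sptbn1 averaged 329 and 258 TPM in female pools and 341 and 262 TPM in male pools. Rgmb, a BMP co-receptor gene, averaged 35.9 ± 3.38 TPM in female pools and 36.8 ± 3.04 TPM in male pools.

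Col1a1, a collagen I chain gene that TGF-β induces in fibroblasts, was at 509.8, 484 and 534 TPM in female pools, against 786, 823 and 621 TPM in male pools. The sexes did not overlap, and the log2 fold change was -0.47 ± 0.10 (SE). edgeR did not call it (adjusted p = 0.42). DESeq2 (adjusted p = 0.0026), limma (adjusted p = 0.072) and edgeR with no filter on low counts (adjusted p = 0.098) called it. The summed level of the 12 fibroblast markers, Col1a1 among them, was 6662, 6668 and 7313 TPM in female pools, against 8096, 8342 and 6894 TPM in male pools, and its part was not tested. Tgfbi, a matrix protein gene named for its induction by TGF-β, was at 437, 436 and 384 TPM in female pools, against 470, 464 and 537 TPM in male pools. Its log2 fold change was -0.22 ± 0.10 (SE), with an edgeR adjusted p of 0.82. Klf10, an early TGF-β response gene, averaged 33.8 ± 1.21 TPM in female pools and 37.8 ± 1.63 TPM in male pools, with an edgeR adjusted p of 0.60. Nrros, which anchors latent TGF-β on macrophages, averaged 77.5 ± 1.65 TPM in female pools and 88.9 ± 0.363 TPM in male pools, with an edgeR adjusted p of 0.75. Rgma, a BMP co-receptor gene, was the one of the 4 genes at an unadjusted p under 0.05 with a positive fold change. It averaged 19.1 ± 1.15 TPM in female pools and 16.7 ± 1.31 TPM in male pools, with an edgeR adjusted p of 0.63.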

How the data were processed

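Poly-A libraries that keep strand were sequenced as paired reads from 6 pools. Per the submitters' processing notes, the authors trimmed the reads with Trimmomatic 0.39 and estimated transcript levels with Salmon 1.5.2, against GENCODE transcripts of the mouse. The sources used here differ on the Salmon version and the GENCODE release. For each of 140789 transcripts the deposited tables hold an estimated count of read pairs, with no further normalization, and a TPM, which the authors' software scales by effective length and to the same total in each pool.

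Estimated counts and TPM were summed by gene identifier to 54309 genes, and the counts were rounded to whole numbers. A gene was tested if its CPM reached 0.5 in 3 or more pools, which left 16310 genes. The sexes were compared with the quasi-likelihood test of edgeR 4.0.16, fitted robustly with TMM factors and without covariates, with Benjamini-Hochberg adjustment over all genes and a threshold of 0.1, as in the study's methods. DESeq2 1.42.0 and limma 3.58.1 (voom with sample quality weights), in R 4.3.3, were alternatives, as were other size factors and filters, transcript length offsets, the replicate number as a block and each pool left out. The steps were tested on simulated data. Tables and plots were made in Python 3.11.15 with pandas 2.3.3, NumPy 2.4.6, SciPy 1.17.1 and matplotlib 3.10.9.

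Coordinates are from GENCODE M39 on GRCm39, which 53700 of the genes matched by identifier. Exon structures are from the same annotation for the same transcript identifiers. Promoter sequence is from RefSeq on GRCm38.p6.

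The members, the gene lists, the markers and the rule for named genes were chosen with earlier results of these data known. The rule takes, in each role, the 2 members with the highest mean TPM. It adds ligands with a wide range between pools, the 8 members with the smallest p, members called by edgeR or DESeq2, and both targets. From each further pathway list it takes the 2 most abundant genes and up to 2 with the smallest p. The other members are given so that each of the 53 is accounted for, and were not picked by value. Intervals for reads at 0 cover counting error only. The biological coefficient of variation was 0.154, and the pools of a sex differed by far more than sampling noise, so each counts as a separate sample.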

Additional observations from a re-analysis of the deposited data

How the results depend on the processing

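The edgeR count of 10 genes called stayed within 1.5 times under RLE factors, the stricter filter and the transcript length offset. It was 49 with no filter, 159 with DESeq2, 26 with limma and 5 with the replicate block, and 3 to 8 with 1 pool left out. The count of members called, 1, was unchanged under these alternatives except the block, where it was 0, and ranged from 0 to 1 with 1 pool left out. Members at an unadjusted p under 0.05, 3 in number, were 8 with limma, beside 15.5% of all genes, and 1 to 6 with 1 pool left out. The members' median log2 fold change of 0.017 was -0.077 with limma and between -0.033 and 0.067 with 1 pool left out. The Gdf3 log2 fold change was 1.07 to 1.26 over 13 alternatives, and 8 of them called it, with adjusted p from 2.1e-11 to 0.25. None of the other 7 members with the smallest p was called under any of the 13, and none changed direction. The median percentile of 53.2 was 58.9 with protein-coding transcripts alone and 75.6 among all genes with TPM above 0. With protein-coding transcripts alone, 11 of the 53 mean levels moved by more than the spread between replicates. The cause of these shifts was not tested.

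Pools that share a replicate number came from different animals, and their deviations from the group means correlated at -0.181, -0.164 and -0.150, so the numbers do not pair the pools. With the number as a block the adjusted p of Gdf3 was 0.21 at a log2 fold change of 1.15. With 3 pools per sex an exact permutation test of a single value cannot give a two-sided p under 0.1, and a member that was not called may still differ. Among the members tested, the largest edgeR standard errors on the log2 scale were 0.48 for Inhba and 0.33 for Gdf15.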
